A study of Mus musculus with 12 samples.

Results

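Livers of untreated Pml KO mice were compared with livers of untreated Pml wt mice. The comparison rests on 4 of the 12 arrays of the study, 2 KO and 2 wt, chosen by their titles, and on the 17052 genes, of 18820 with a probe set of a single symbol, whose mean log2 intensity over the 12 arrays was at least 5. All mice were BALB/cByJ females aged 2.5 months, and total liver RNA was measured on Affymetrix Mouse Gene 1.1 ST arrays, which carry probe sets along whole transcripts. The other 8 arrays, 2 KO and 2 wt at each of 2 h and 6 h after an intraperitoneal dose of 300 mg/kg acetaminophen, share no array with the untreated groups and serve as separate measurements of the same 2 genotypes. They also entered the untreated comparison through the shared estimate of the spread, the limit on the mean and the choice of the brightest probe set of a gene. The labels do not say how the KO allele was made, whether the untreated mice were injected with PBS, or whether the 2 arrays of a group came from separate animals. The p-values therefore measure only the spread between these arrays, which may be technical.

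PML builds the nuclear bodies named after it, small spheres that form as the protein is modified by SUMO and that gather partners such as SP100 and DAXX. Pml is itself induced by interferons, and the bodies are known for their part in antiviral defence, p53 regulation, senescence and the handling of oxidative stress. In other settings PML has also been tied to fatty acid oxidation through PPAR signalling. The liver is mostly hepatocytes by mass, which make plasma proteins, oxidise fatty acids and detoxify drugs.

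Levels are given as log2 intensity for replicate 1 and then replicate 2 of each group, and differences as KO minus wt on the log2 scale with the standard error of the limma fit. A gene passed at an adjusted p under 0.05 over all 17052 genes. A gene is said to stand apart where both KO arrays lay beyond both wt arrays on the same side. The group means had also to differ by at least 0.5. Standing apart is a description and not a test. All gene lists were chosen with earlier results of these data known, and those marked so were written after the values were seen.

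Hepatocyte markers checked the liver label, with mean log2 intensities in the untreated arrays between 12.4 for Tdo2 and 13.4 for Alb. Pml (chromosome 9, 58217179 to 58249796 of GRCm38.p6) had log2 intensities of 7.10 and 7.97 in the KO arrays, against 8.18 and 8.46 in the wt arrays. Both KO arrays were lower than both wt arrays, by 0.79 on average (difference -0.79 ± 0.24, limma adjusted p = 1). The 7.97 of the array labelled KO replicate 2 was above the 7.82 to 7.92 of the wt arrays taken 2 h after acetaminophen, so it was among the wt values of the study. Without that array the Pml difference was -1.22, and without KO replicate 1 it was -0.353. Only 1 probe set carries the symbol Pml, and the labels do not say whether it reads the deleted part, so a remaining signal does not by itself speak about the protein.

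The 4 arrays resembled each other closely. Pairs of arrays of different genotype differed at least 2-fold in 60 to 88 genes, while the 2 KO arrays differed so from each other in 65 genes and the 2 wt arrays in 46. In the fit, 1 of 17052 genes passed (0.00586%), and 660 had an unadjusted p under 0.05 (3.87%), 1.75% of all genes higher in KO and 2.12% lower. A difference of at least 2-fold was seen for 32 genes (0.188%), and the arrays of the groups did not overlap for 35.7% of genes. The genes that stood apart were 170 (0.997%), of which 104 were higher in KO (0.61%) and 66 lower (0.387%). The median difference of all tested genes was -0.00714. In the same fit, KO and wt differed in 342 genes at 2 h after acetaminophen (2.01%) and in 1538 at 6 h (9.02%), counts that ranged from 8 to 777 and from 172 to 1691 when 1 of the 12 arrays was left out.

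**Figure D1:**
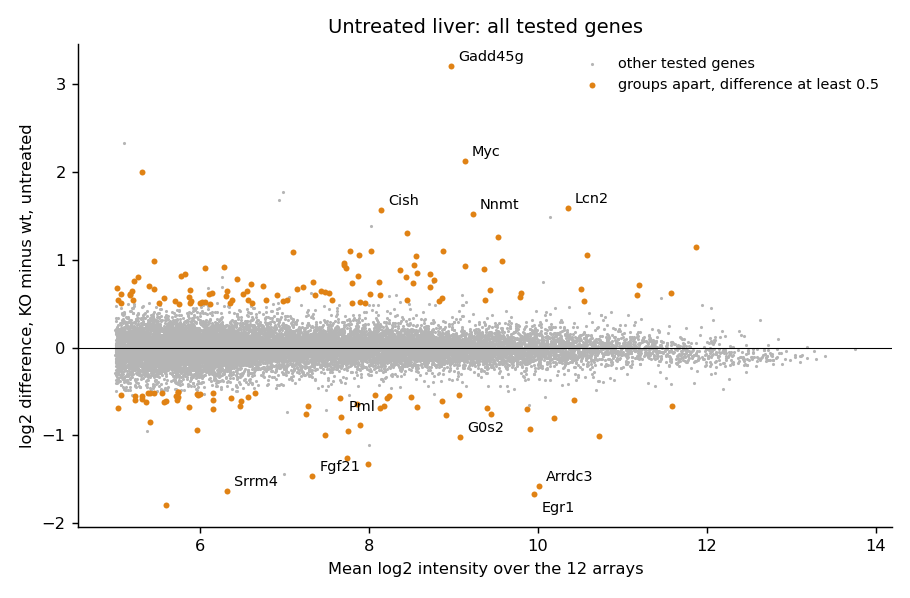
Each point is 1 of the 17052 tested genes, with its mean log2 intensity over the 12 arrays (x) and its log2 difference between untreated KO and wt liver (y). Orange points are the 170 genes that stood apart, and Gadd45g, at 3.21, lies above all others.

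The single gene that passed was Gadd45g, which encodes a small stress-induced protein that binds the MAP kinase kinase kinase MTK1 and PCNA. Its log2 intensity was 8.59 and 9.63 in the KO arrays, against 6.11 and 5.70 in the wt arrays. It rose by 3.21 ± 0.34 in KO liver, a 9.23-fold difference (limma adjusted p = 0.037), and both KO arrays were far above both wt arrays. Without 1 of the 4 arrays the difference was 2.69 to 3.72, and its direction could not change because the groups did not overlap. The call ended without the array labelled KO replicate 2 (2.69), without wt replicate 1 (3.41) and without wt replicate 2 (3.0003). In a limma fit of the 4 untreated arrays alone its adjusted p was 0.262. Its relatives gave other values. Gadd45b had log2 intensities of 6.13 and 5.38 in the KO arrays, against 6.16 and 6.71 in the wt arrays (-0.68, and -0.30 without the array labelled KO replicate 2), and Gadd45a differed by 0.01 ± 0.59.

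The promoter of Gadd45g, as the gene with the only call, is shown as the 250 bases before the RefSeq start (GRCm38.p6, chr13:51846425-51846674, plus strand). Capitals mark its 1 match to CACGTG, the E-box letters that Myc and the circadian clock factors are known to bind, which begins at position -142 from the start. The motif reads the same on both strands and was present in 6.86% of 27025 promoters of this length.
Gadd45g: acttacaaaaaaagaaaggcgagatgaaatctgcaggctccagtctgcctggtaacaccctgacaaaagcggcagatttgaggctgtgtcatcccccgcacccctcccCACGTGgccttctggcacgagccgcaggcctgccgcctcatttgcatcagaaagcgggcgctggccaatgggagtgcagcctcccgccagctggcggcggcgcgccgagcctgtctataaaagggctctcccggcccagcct

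Beyond Gadd45g no gene passed, so what follows describes differences and their spread. Among genes that act in cytokine signalling or its feedback, several stood apart on the higher side. Myc, a transcription factor of cell growth, had log2 intensities of 8.09 and 9.36 in the KO arrays, against 6.33 and 6.88 in the wt arrays (difference 2.12 ± 0.44, limma adjusted p = 0.645). Cish, a feedback inhibitor induced by STAT5, had 8.16 and 9.33 in the KO arrays, against 7.26 and 7.09 in the wt arrays (1.57 ± 0.59). In both genes the array labelled KO replicate 2 was the highest, and without it the differences were 1.48 and 0.98. Lcn2, a secreted iron-siderophore binder of the acute phase, had 9.38 and 9.58 in the KO arrays, against 7.74 and 8.04 in the wt arrays (1.59 ± 0.22, limma adjusted p = 0.181). Its KO arrays lay close together and its groups were far apart.

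Socs3, the feedback inhibitor of IL-6 signalling, differed by 0.59 ± 0.21 (0.45 without the array labelled KO replicate 2), but its second probe set, with 6.91 and 6.95 in the KO arrays against 6.86 and 6.87 in the wt arrays, gave 0.067. Fgl1, a secreted hepatocyte protein induced by IL-6, differed by 0.62 ± 0.15. In a list of 17 cytokine feedback and STAT target genes, written after the values were seen, 6 stood apart higher and 0 lower, with a median of 0.157. Of all tested genes 0.61% stood apart higher, but writing the list with the values in view could itself raise its count. The 6 were 5 with probe sets averaged per gene and with the limit on the mean taken over the 4 untreated arrays. Of 27 acute phase proteins, 3 stood apart higher (Lcn2, Orm2 and Socs3) and 1 lower (Hamp2), beside 0.61% and 0.387% of all tested genes. By any amount 16 were higher, against 47.9% of all tested genes. This list too was chosen with earlier results of these data known. Orm2, an acute phase carrier protein, had 10.46 and 9.45 in the KO arrays, against 8.98 and 8.94 in the wt arrays. Here the KO arrays were unequal, and only replicate 1 was far above the wt arrays, and the difference of 0.99 was 1.49 without the array labelled KO replicate 2. The acute phase proteins apart higher were 2 of 27 with probe sets averaged per gene, with the limit on the mean taken over the 4 untreated arrays and with log2 of the value plus 16. The count of acute phase proteins higher by any amount was 24 of 27 after quantile normalization.

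Other genes that stood apart higher were not of 1 kind. Nnmt, which methylates nicotinamide and so draws on both NAD precursors and methyl groups, had log2 intensities of 10.59 and 10.36 in the KO arrays, against 8.93 and 8.98 in the wt arrays (1.52 ± 0.43, limma adjusted p = 1). Acmsd, which diverts tryptophan breakdown away from NAD synthesis, had 9.24 and 9.40 in the KO arrays, against 8.45 and 8.38 in the wt arrays (0.90 ± 0.28). These were the 2 of 25 genes of NAD metabolism that stood apart (0.61% of all tested genes were apart higher). The median of that list was -0.02. The metallothioneins Mt1 and Mt2, which bind zinc and copper, differed by 0.60 ± 0.11 and 1.15 ± 0.40. For Mt2 the difference came to 0.30 without the array labelled KO replicate 2, which had 10.85 beside 9.16 in the other KO array. Slc41a2, a magnesium transporter, differed by 0.96 ± 0.18 and Rasgef1b, a RAP guanine nucleotide exchange factor, by 1.10 ± 0.22.

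**Figure D2:**
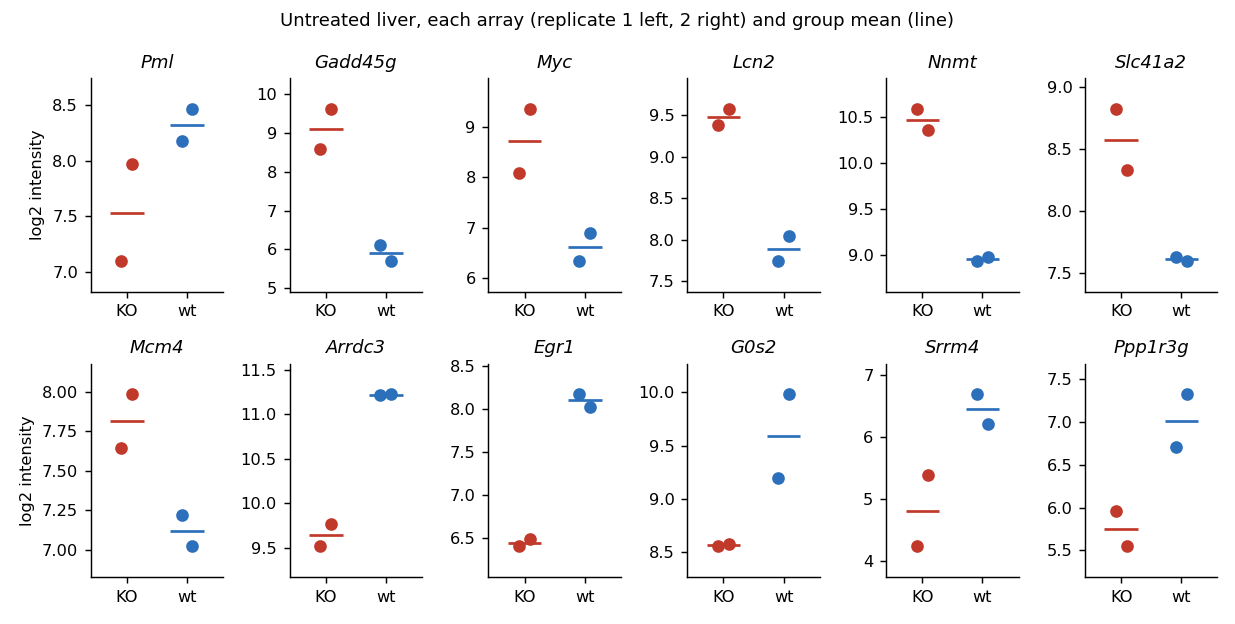
Log2 intensity of 12 genes in each untreated array (points, y) for KO (red, left) and wt (blue, right), with the group mean as a line and a separate y axis for each gene. All 12 genes were picked among those that stood apart, so the lack of overlap between their groups follows from that choice. The groups did not overlap for 35.7% of all tested genes. For Pml the array labelled KO replicate 2 lies nearest to wt.

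On the lower side, Arrdc3 had the smallest p among the genes named by rule. It encodes an alpha-arrestin that sends membrane receptors for degradation, and it is a FOXO1 target in liver. Its log2 intensity was 9.52 and 9.77 in the KO arrays, against 11.21 and 11.22 in the wt arrays (-1.58 ± 0.23, limma adjusted p = 0.181). Of 24 insulin and FOXO1 targets, 4 stood apart lower (0.387% of all tested genes did) and 0 higher: Arrdc3, Fgf21, Txnip and Angptl8. Txnip, the alpha-arrestin that binds thioredoxin and restrains glucose uptake, had 9.70 and 9.47 in the KO arrays, against 10.02 and 10.999 in the wt arrays (-0.93 ± 0.37). For Angptl8, an insulin-induced regulator of lipoprotein lipase, the gap rested on 1 array: 10.17 and 10.11 in the KO arrays, against 11.69 and 10.20 in the wt arrays. The list's median was -0.05.

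Egr1, an immediate early transcription factor, had 6.40 and 6.48 in the KO arrays, against 8.18 and 8.03 in the wt arrays (-1.66 ± 0.44, limma adjusted p = 0.997). The groups were far apart and each was tight. A limma fit of the 4 untreated arrays alone, which leaves out the spread within the treated groups, gave a standard error of 0.10 and an adjusted p of 0.041. The immediate early genes as a list did not follow 1 direction, with 3 of 33 apart higher (Myc, Maff and Dusp5), 1 lower (Egr1) and a median of -0.09. Beside this, 0.61% of all tested genes were apart higher and 0.387% lower. Maff and Dusp5 passed the limit on the mean only through the treated arrays, and with the limit taken over the 4 untreated arrays 1 of 29 was apart higher. Hes1, a repressor downstream of Notch, had 5.96 and 6.83 in the KO arrays, against 7.69 and 7.09 in the wt arrays (-0.995 ± 0.28), and it was the single one apart of 10 Hes and Hey family genes, a list written after the values were seen.

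Rmi2, a subunit of the complex around the BLM helicase, was chosen after its values were seen. It had 4.22 and 4.18 in the KO arrays, against 5.94 and 6.03 in the wt arrays (-1.79 ± 0.26, limma adjusted p = 0.181, and 0.0336 in a fit of the 4 untreated arrays alone). Srrm4, a splicing factor of neurons, had 4.24 and 5.38 in the KO arrays, against 6.69 and 6.21 in the wt arrays (-1.64 ± 0.38). Rnf170, an endoplasmic reticulum ubiquitin ligase, differed by -0.75 ± 0.18, and its second probe set gave -0.79. Ppp1r3g, a glycogen-targeting subunit of protein phosphatase 1, had 5.95 and 5.55 in the KO arrays, against 6.70 and 7.32 in the wt arrays (-1.26 ± 0.37).

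Interferon-stimulated genes were higher in KO liver as a group, by small amounts. Of 42 tested, 41 were higher by any amount (47.9% of all tested genes were), 8 stood apart higher (0.61% of all) and 0 lower, with a median difference of 0.254, and 0 passed (12 of the 42 had an unadjusted p under 0.05, all higher, beside 1.75% of all genes). Ifit1, which binds viral RNA, had log2 intensities of 8.71 and 8.18 in the KO arrays, against 7.005 and 7.69 in the wt arrays (1.10 ± 0.33). Usp18, which removes ISG15 and dampens the interferon receptor, had 9.67 and 9.05 in the KO arrays, against 8.33 and 8.54 in the wt arrays (0.93 ± 0.24). Oas1a, of the oligoadenylate synthetase family, differed by 0.99 ± 0.39 and Ifit3 by 0.88 ± 0.37. The other 4 apart, named after their values were seen, were Rsad2, Gbp3, Herc6 and Oasl1.

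The size of the interferon difference was set largely by 2 of the 4 arrays. KO replicate 1 was the highest array for 36 of the 42 genes and wt replicate 1 the lowest for 36, whereas the array labelled KO replicate 2 and wt replicate 2 lay between them. The number higher in KO was 35 without KO replicate 1, 36 without wt replicate 1, and 42 without either of the other 2 arrays, at medians between 0.138 and 0.360. Of the 10 Kupffer cell and macrophage markers, 9 were higher in KO, at a median of 0.048. Their summed intensity was 7089 and 6166 in the KO arrays, against 6181 and 6467 in the wt arrays, so KO replicate 1 was the highest here too. The part of these cells in the interferon difference was not tested, and in whole liver fewer cells of a type and less RNA per cell cannot be told apart. MHC class I and II genes, which interferons also induce, were lower in 12 of 14, at a median of -0.080.

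**Figure D3:**
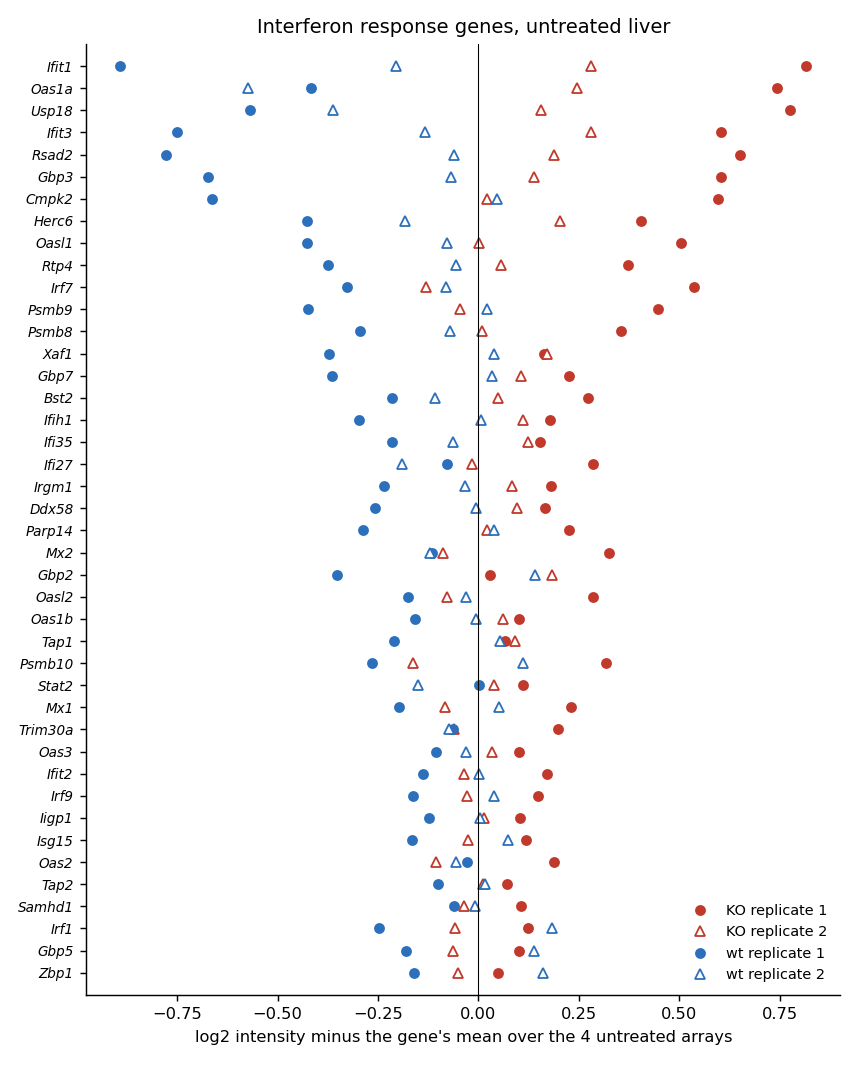
Each row is 1 of the 42 interferon response genes, ordered by the difference between KO and wt, with its log2 intensity in each untreated KO (red) and wt (blue) array after subtracting the gene's mean over the 4 arrays (x). Filled circles are replicate 1 and open triangles replicate 2, and the filled circles of KO and wt lie farthest apart in most rows.

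Promoters are shown for 3 interferon genes that stood apart and have an entry in RefSeq's promoter table. Capitals mark matches, on either strand and including overlaps, to GAAA followed after any 2 bases by GAAA, the core of the interferon-stimulated response element. They were found in 3.46% of all 27025 promoters of this length, in 14 of the 31 interferon list promoters available (45.2%) and in 5 of the 7 among the genes that stood apart. The sequences are the 250 bases before the start in GRCm38.p6: Ifit1 at chr19:34640639-34640888 on the plus strand, Ifit3 at chr19:34583279-34583528 on the plus strand, and Oas1a at chr5:120907526-120907775 on the minus strand. A match is a description of the letters, not of binding.
Ifit1: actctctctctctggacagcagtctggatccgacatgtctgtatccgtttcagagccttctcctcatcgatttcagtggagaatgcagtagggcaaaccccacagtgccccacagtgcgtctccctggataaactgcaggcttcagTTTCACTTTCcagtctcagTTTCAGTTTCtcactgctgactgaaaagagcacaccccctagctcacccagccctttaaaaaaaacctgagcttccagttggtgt
Ifit3: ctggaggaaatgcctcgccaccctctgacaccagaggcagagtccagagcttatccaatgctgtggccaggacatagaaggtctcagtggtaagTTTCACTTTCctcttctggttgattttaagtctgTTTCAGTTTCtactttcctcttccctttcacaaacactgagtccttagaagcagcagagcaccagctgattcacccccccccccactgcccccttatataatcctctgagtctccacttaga
Oas1a: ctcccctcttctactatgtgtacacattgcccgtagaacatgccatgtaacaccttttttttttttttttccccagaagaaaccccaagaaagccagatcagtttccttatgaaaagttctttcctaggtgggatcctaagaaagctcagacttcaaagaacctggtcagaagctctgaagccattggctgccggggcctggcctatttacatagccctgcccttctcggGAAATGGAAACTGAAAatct

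Targets of PPAR-alpha, the fasting-activated receptor that drives fatty acid oxidation, were slightly lower in KO liver. Of 36 tested, 32 were lower by any amount (52.1% of all tested genes were), 2 stood apart lower (0.387% of all) and 0 higher. The median was -0.144. Small shifts were not particular to this list. Cytochrome P450 genes were lower in 31 of 39 (median -0.130), secreted hepatocyte proteins in 22 of 28 (-0.105) and respiratory chain genes in 30 of 66. After quantile normalization 29 of the 36 PPAR-alpha targets were lower, at a median of -0.124, beside 26 of 39 P450 genes and 18 of 28 secreted proteins. Pdk4, the kinase that holds back pyruvate oxidation, had 8.73 and 8.97 in the KO arrays, against 9.42 and 10.29 in the wt arrays (-1.01 ± 0.51). Fgf21, a liver hormone of fasting, had 4.96 and 4.05 in the KO arrays, against 6.32 and 5.62 in the wt arrays (-1.47 ± 0.56). Plin2, a coat protein of lipid droplets named after its values were seen, had 11.06 and 11.17 in the KO arrays, against 11.56 and 11.63 in the wt arrays (-0.48 ± 0.10). Its groups were tight and did not overlap.

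The wt replicate 2 array was the highest for 24 of these 36 genes, and without it 25 were lower, at a median of -0.061. G0s2, an inhibitor of the lipase ATGL, had 8.56 and 8.58 in the KO arrays, against 9.20 and 9.98 in the wt arrays (-1.02 ± 0.20, limma adjusted p = 0.645, and 0.022 without wt replicate 1). Cpt1a, the gate of fatty acid entry into mitochondria, differed by -0.16 ± 0.14. Lpin1, which makes diacylglycerol, ran the other way at 0.90 ± 0.36 (0.48 without the array labelled KO replicate 2). Fatty acid and triglyceride synthesis as a list had 2 of 27 apart higher (0.61% of all tested genes were), 0 lower and a median of 0.00877.

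**Figure D4:**
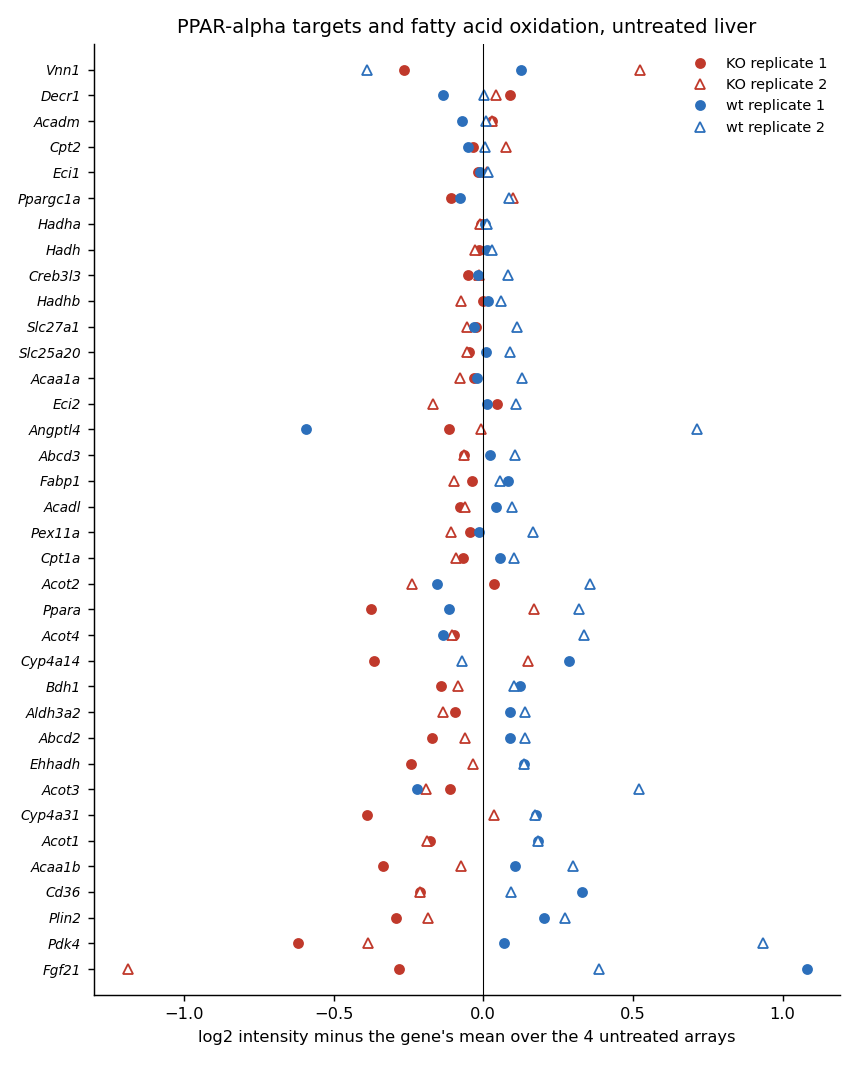
Each row is 1 of the 36 PPAR-alpha and fatty acid oxidation genes, ordered by the difference between KO and wt, with its log2 intensity in each untreated KO (red) and wt (blue) array after subtracting the gene's mean over the 4 arrays (x). Filled circles are replicate 1 and open triangles replicate 2, and wt replicate 2 is the highest array in 24 rows.

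A few genes of DNA replication stood apart. Mcm4, a subunit of the replicative helicase, had 7.65 and 7.98 in the KO arrays, against 7.22 and 7.02 in the wt arrays (0.69 ± 0.14), and its partner Mcm6 had 6.34 and 6.91, against 5.77 and 5.81 in the wt arrays (0.83 ± 0.18, and 0.54 without the array labelled KO replicate 2). The mitotic kinase Aurka differed by 0.51 ± 0.13. These 3 were the cell cycle genes that stood apart, of 34 (0.61% of all tested genes stood apart higher). Of the 34, 27 were higher by any amount (47.9% of all tested genes were), at a median of 0.130. At a mean log2 of at least 7, 1 of 14 stood apart higher. In a list of 33 replication licensing and fork genes, written after the values were seen, 28 were higher, 4 stood apart higher and 1 lower (Rmi2). Of all tested genes 0.61% stood apart higher and 0.387% lower. As the list was written with the values in view, these shares are no test of its counts. At a mean log2 of at least 7, 1 of 12 genes of this list stood apart higher and 0 lower. The array labelled KO replicate 2 was the highest for 21 of these 33 genes and wt replicate 1 the lowest for 20.

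Some genes that follow the time of day or glucocorticoids stood apart, and of both lists only Gadd45g passed. Per1, a clock repressor that glucocorticoids induce, had 7.43 and 7.66 in the KO arrays, against 6.86 and 6.05 in the wt arrays (1.10 ± 0.31). Noct, a rhythmic NADPH phosphatase, had 8.49 and 8.37 in the KO arrays, against 7.76 and 7.01 in the wt arrays (1.04 ± 0.33). With Usp2 (0.74 ± 0.24) they were the 3 of 21 clock genes apart higher (0.61% of all tested genes were), with 0 apart lower and a list median of 0.182. By any amount 13 of the 21 were higher and 8 lower, beside 47.9% and 52.1% of all tested genes. Of 20 glucocorticoid-induced genes, a list written after the values were seen that includes Gadd45g, Lcn2, Mt1, Mt2 and Per1, 7 stood apart higher and 1 lower (Pdk4), 13 were higher by any amount and 7 lower. The median was 0.472, which was 0.229 without the array labelled KO replicate 2. The counts and the median may owe part of their size to the late choice of the list.

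Targets of BMP and SMAD signalling, which sets hepcidin in liver, were lower in 11 of 13, at a median of -0.202, beside 52.1% of all tested genes. The list was written after the values were seen, which could itself raise the count, so the share of all genes is no test of it. KO replicate 1 was the lowest array for 9 of the 13 (26.6% of all tested genes). At 2 h 7 were higher in KO and 6 lower. At 6 h 10 were higher and 3 lower, at a median of 0.803, and 6 passed as higher and 1 as lower (4.09% and 4.93% of all genes did). Id1, an inhibitor of helix-loop-helix factors, had 6.57 and 6.82 in the KO arrays, against 7.82 and 7.47 in the wt arrays (-0.95 ± 0.33). Hamp2, a relative of hepcidin, had 10.79 and 11.44 in the KO arrays, against 11.98 and 11.64 in the wt arrays (-0.70 ± 0.26). Id2 and Atoh8, named after their values were seen, differed by -0.41 ± 0.16 and -0.28 ± 0.12.

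Several groups tied to PML or to the liver's main work had few or no members apart. Of 42 PML nuclear body partners Pml alone stood apart, and the median was -0.011. The partners Sp100 and Daxx differed by -0.15 ± 0.22 and 0.01 ± 0.17. NRF2 targets, the antioxidant response, had 0 of 35 apart and a median of -0.000131. The p53 targets had 1 of 31 apart on each side (Plk3 higher, Plk2 lower). Of all tested genes 0.61% were apart higher and 0.387% lower, so counts of 0 or 1 in lists this short say little. Cytochrome P450 genes of families 1 to 3 were lower in 31 of 39, at a median of -0.130, with 1 apart on each side, and in 26 of 39 after quantile normalization. Cyp2e1, which activates acetaminophen, differed by -0.16 ± 0.09.

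Ribosomal protein genes were lower in 61 of 67 by small amounts, at a median of -0.104 with 0 apart, and wt replicate 1 was the highest array for 57 of them. Collagen and matrix genes were lower in 27 of 33, and KO replicate 1 was the lowest array for 25 of them, so that without it 17 were lower. Stellate cell and fibroblast markers were lower in 7 of 8, with summed intensities of 5145 and 5757 in the KO arrays, against 6122 and 6212 in the wt arrays, and the part of these cells was not tested. Genes of cholesterol synthesis and uptake were higher in 19 of 21, at a median of 0.206, but the array labelled KO replicate 2 was the highest for 20 of them, and without it 6 of 21 were higher, at a median of -0.037. None of the 12 cell type marker lists had a member apart. These lists are short and 0.997% of all tested genes stood apart, so that count says little about cell types. The summed neutrophil markers were 446 and 457 in the KO arrays, against 469 and 460 in the wt arrays.

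Genes near Pml are inherited with the targeted allele when a strain is backcrossed. On chromosome 9, 0 of 106 tested genes within 5 Mb of Pml stood apart, against 7 of 291 at 5 to 20 Mb, all higher in KO, 6 of 584 on the rest of the chromosome and 0.972% of the genes on other chromosomes. The share with an unadjusted p under 0.05 was 5.66% within 5 Mb, 6.19% at 5 to 20 Mb and 3.78% on other chromosomes. Nnmt and Il18, both apart higher in KO, start at 48538002 and 50554700 on the same chromosome, at 5 to 20 Mb from Pml. Whether DNA inherited with the targeted allele had a part in their differences was not tested.

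The treated arrays give a separate measure of the genotype difference for the genes chosen in untreated liver. Leaving out Pml, 92 of the 169 genes that stood apart had the same sign at 2 h (54.4%) and 94 at 6 h (55.6%), against 47.8% and 52.9% of all tested genes. They shared the sign at both times in 57 (33.7%), against 25.5% of all tested genes, whose own sign in untreated liver was used in the same way. At 2 h, 8 passed in the same direction and 2 in the opposite one, beside 172 and 170 of all tested genes. At 6 h, 18 passed in the same direction and 19 in the opposite one, beside 901 and 637 of all tested genes. Of the 104 genes higher in untreated KO liver, 7 passed in the same direction at 6 h and 18 in the opposite one, and of the 65 lower, 11 passed in the same direction and 1 in the opposite one.

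Nnmt was among those that kept their direction, at 1.89 at 2 h (limma adjusted p = 0.0552) and 2.10 at 6 h, where it passed (adjusted p = 0.0195). Il18, a cytokine of the IL-1 family named after its values were seen, had 8.55 and 8.26 in the untreated KO arrays, against 7.67 and 8.08 in the wt arrays (0.53 ± 0.22), and passed at both 2 h (1.03, limma adjusted p = 0.0482) and 6 h (1.01, adjusted p = 0.0237). The KO minus wt difference of G0s2 was -1.37 at 2 h (limma adjusted p = 0.0163) and -0.30 at 6 h.

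The PPAR-alpha and interferon groups again had most members on the same side. PPAR-alpha targets were lower in KO in 34 of 36 at 2 h and 35 of 36 at 6 h. Their medians were -0.254 and -0.276, beside medians of all genes of -0.0988 and 0.00777. Most of all genes were lower in KO at 2 h, where 32.9% were higher. Ribosomal protein genes were lower in 67 of 67 and respiratory chain genes in 64 of 66 at 2 h, and in 13 and 38 at 6 h. Of the PPAR-alpha targets, 4 passed as lower at 6 h (4.93% of all genes did) and 0 at 2 h (1.6% did). Interferon genes were higher in KO in 33 of 42 at each time, at medians of 0.222 and 0.351, while 32.9% and 51.0% of all genes were higher. Of them, 2 passed as higher at 2 h and 8 at 6 h (0.411% and 4.09% of all genes did). Other genes had a KO minus wt difference of the opposite sign at 1 or both times after acetaminophen. Arrdc3 was higher in KO than in wt by 1.84 at 2 h (limma adjusted p = 0.00837), and Gadd45g was lower in KO by 1.53 at 6 h (adjusted p = 0.0247). Myc was still higher in KO at 2 h, by 2.40 (limma adjusted p = 0.0323), and was lower in KO than in wt at 6 h, by 1.85 (adjusted p = 0.0308). These calls rest on few arrays: those of Il18, G0s2, Arrdc3 and Myc at 2 h ended without either wt 2 h array, and those of Nnmt, Il18, Gadd45g and Myc at 6 h ended when either wt 6 h replicate 1 or KO 6 h replicate 2 was left out. The call of Il18 at 2 h ended also with no filter on the mean, with a replicate block and without any 1 array other than the 2 wt 6 h arrays. The change of the genotype difference between untreated and treated liver passed for 5 genes at 2 h (0.0293%) and 83 at 6 h (0.487%).

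**Figure D5:**
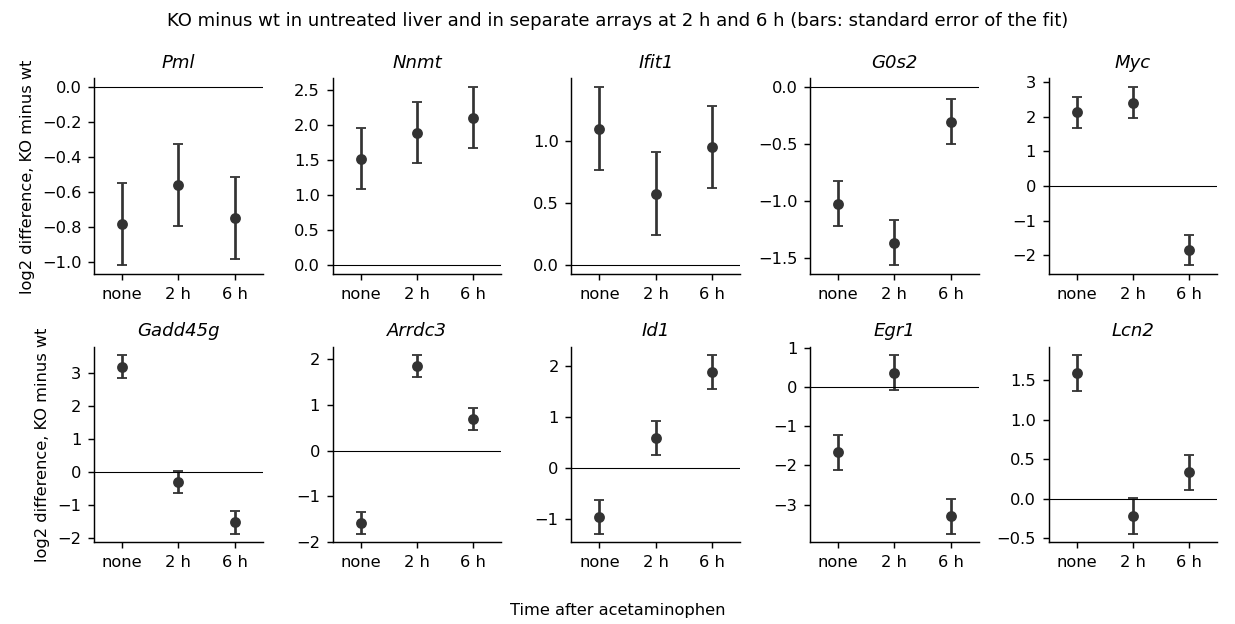
Log2 difference between KO and wt (points, y) for 10 genes in untreated liver and in the separate arrays at 2 h and 6 h after acetaminophen (x), with the standard error of the fit as bars and a separate y axis for each gene. Nnmt lies above 0 in all 3 conditions, and Gadd45g, Myc, Arrdc3 and Id1 lie on both sides of 0.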

How the data were processed

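Total RNA of mouse liver was measured on 12 arrays, 2 in each of 6 groups. The deposited values are linear intensities per probe set that the authors made with Affymetrix Expression Console and RMA, per the submitters' processing notes, which give no versions. RMA corrects background, normalizes quantiles and sums probes, which pulls differences between dim probe sets towards 0. The log2 of each intensity was taken here with no pseudocount.

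The table has 35556 probe sets, of which 21218 carry 1 symbol, 1881 several and 12457 none in the platform annotation. The brightest probe set stood for each gene, and genes with a mean log2 of at least 5 over the 12 arrays were tested. Slc9b1 (5.0001) lay just inside this limit and Sult1c1 (5.0) just outside it. Of the tested genes, 17025 matched the RefSeq table of GRCm38.p6. The fit used limma 3.58.1 (lmFit and eBayes, R 4.3.3) with 6 group means over all 12 arrays, so that the groups share 1 estimate of the spread (6 residual degrees of freedom), with Benjamini-Hochberg adjustment over 17052 genes. It was tested on simulated data. With 2 arrays a group, their number limits the precision.

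Named genes, leaving out predicted and receptor families, were Pml, the 12 higher and 12 lower genes apart with the smallest p and the 5 largest each way, at a mean log2 of at least 6, up to 4 members of each list, and up to 6 genes near Pml. The members and lists were chosen with earlier results of these data known. Alternatives were the filter, the normalization, a pseudocount of 16, the probe set rule, a variance trend, a fit of 4 arrays, a replicate block and leaving out each array. The scale of the table is taken from its values. Same-numbered KO and wt untreated arrays had a correlation of deviations of 0.149, and with 2 numbers and no label of a shared batch the numbers do not pair the samples.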

Additional observations from a re-analysis of the deposited data

Results flagged for a closer look

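The differences between KO and wt in untreated liver were set against those after acetaminophen by a test of the difference itself, in the same limma fit. It passed for 5 genes at 2 h (0.0293%) and 83 at 6 h (0.487%) of all 17052. The values below are the difference at that time minus the difference in untreated liver, on the log2 scale. Only genes named by rule are listed. Many of them were chosen for a large difference in untreated liver, which the test subtracts. That choice favoured changes in the opposite direction in advance. Id2 at 2 h and Atoh8 at 6 h, named after their values were seen, also passed and are not listed.

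At 6 h the genotype difference was lower than in untreated liver for Gadd45g by -4.74 ± 0.48 (limma adjusted p = 0.00324), Myc by -3.97 ± 0.62 (0.0262), Rasgef1b by -2.20 ± 0.30 (0.0145), Wsb1 by -1.45 ± 0.22 (0.025) and Mt1 by -0.91 ± 0.16 (0.0394). Wsb1 encodes a substrate receptor of a ubiquitin ligase, and all 5 stood apart higher in untreated KO liver. The same held for Socs3, at -1.93 ± 0.30 (limma adjusted p = 0.0262). Hamp2, which stood apart lower in untreated KO liver, was lower still at 6 h, by -2.43 ± 0.36 (0.0226).

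Arrdc3 and Id1 turned the other way. The genotype difference of Arrdc3 was higher by 3.41 ± 0.33 at 2 h (limma adjusted p = 0.00501) and by 2.26 ± 0.33 at 6 h (0.0198) than in untreated liver, and that of Id1 was higher by 2.82 ± 0.47 at 6 h (0.0329).

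Some marker genes that did not stand apart in untreated liver were flagged at 6 h by the same test. The neutrophil markers S100a8, S100a9 and Cxcr2 had values of -2.50 ± 0.34 (limma adjusted p = 0.0132), -2.54 ± 0.36 (0.0183) and -3.22 ± 0.48 (0.0226). The erythroid marker Alas2, which makes the first intermediate of heme, had -2.68 ± 0.43 (0.0279), and the hepatocyte marker Tat, which breaks down tyrosine, had -0.84 ± 0.15 (0.0424).

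Of these values, the call of Gadd45g held without any 1 of the 12 arrays. That of Arrdc3 at 2 h ended without wt 2 h replicate 2 only. Each of the others ended when either untreated wt array was left out. Of these, all but that of Alas2 also ended without the untreated array labelled KO replicate 2. At 6 h the calls of Mt1, Id1 and Tat also ended with a replicate block, those of Mt1 and Tat after median centring, and that of Socs3 with probe sets averaged per gene and with the limit on the mean taken over the 4 untreated arrays.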

How the results depend on the processing

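The count of genes that passed was 1, and it was 0 with no filter on the mean (Gadd45g at an adjusted p of 0.0513), with log2 of the value plus 16 (0.0527) and with a replicate block (0.106), and 2 in a fit of the 4 untreated arrays (Egr1 and Rmi2). In that fit Gadd45g had an adjusted p of 0.262. Leaving out 1 array gave 0 to 3 genes that passed, and 3 only without KO replicate 1 (Gadd45g, Mt2 and Olfr1141). The block rests on replicate numbers that do not pair the samples. The genes apart, 104 higher and 66 lower, were 58 and 32 at a mean log2 of at least 7, 68 and 40 with log2 of the value plus 16, and 107 lower with no filter. Leaving out 1 array gave 157 to 238 higher and 131 to 189 lower, where a lone array makes the condition easier to meet and is assumed to vary like the other groups. All 65 named genes that stood apart kept their direction under every alternative in which they were tested. Standing apart fixes that direction when 1 array is left out, with a pseudocount or with another estimate of the spread. Only settings that change the normalization or the probe set could have reversed it. Of the 65, 11 or 12 moved by over 1.5 times when 1 array was left out. The values of Gadd45a and Daxx, both within their error of 0, changed sign after median centring (-0.00247 and -0.0016) and without some arrays, where Gadd45a ranged from -0.111 to 0.137 and Daxx from -0.218 to 0.245. Settings for the treated arrays were chosen after seeing the data. The count at 2 h, 342, was 197 after quantile normalization, 221 after median centring and 550 with a replicate block, and 8 (without wt 2 h replicate 1) to 777 (without KO 2 h replicate 2) without 1 array. The count at 6 h, 1538, was 172 (without wt 6 h replicate 1) to 1691 (without KO 6 h replicate 1).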
